A study of Homo sapiens with 24 samples.

Results

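Hypoxia targets and glycolysis enzymes were followed as 39 named genes in HT-144, a human melanoma cell line of metastatic origin, after SREBF1, the gene of a lipid synthesis regulator, was targeted. The genes were taken by symbol from a list of glycolytic enzymes, glucose and lactate transporters and targets of the hypoxia-inducible factors, and all 39 were matched among the 58735 genes counted. Of these, 38 passed the filter on low counts, as did 15123 genes in all. CA12 did not pass, so the 38 genes tested are not the complete list.

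Polyadenylated RNA was sequenced from 6 libraries, 1 for each treatment. The SREBF1-targeting libraries came from cells given a pooled siRNA (siSREBF1, 50 nM) or an antisense oligonucleotide (ASO-SREBF1-S1 or ASO-SREBF1-S4, 5 nM each). The control libraries came from cells given a negative siRNA (siNegative, 50 nM), a negative ASO (ASO-Neg, 5 nM) or neither (mock). Transfection with a lipid reagent lasted 3 days in RPMI medium with insulin, transferrin and selenium, and the labels name no hypoxic treatment. siRNAs and ASOs both lower a target RNA, siRNAs through the RNA-induced silencing complex and many ASOs through RNase H. siRNA and ASO libraries differed in chemistry and in dose, and these cannot be told apart. Each treatment was 1 library read on 4 lanes, which the labels number as replicates but which differed by little more than sampling noise and were counted as 1 sample, so p-values measure the spread between different reagents of a side, and no treatment had a biological replicate.

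Glycolysis splits glucose into pyruvate in the cytosol, and lactate dehydrogenase turns pyruvate into lactate when it is not passed to mitochondria. Hypoxia-inducible factors (HIFs) pair an alpha subunit, which prolyl hydroxylases mark for destruction when oxygen is present, with a stable partner. When oxygen is low the pair binds a short DNA core and raises transcription of most glycolytic enzymes and of genes for acid export, vessel growth, mitophagy and hydroxylation. Many tumour lines, melanoma among them, run glycolysis at a high rate also in air.

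The depth was 13206869, 47900277 and 15901894 gene counts in siSREBF1, ASO-SREBF1-S1 and ASO-SREBF1-S4, against 20014261, 17415823 and 12916478 in siNegative, ASO-Neg and mock. SREBF1 itself, the check of the labels, averaged 67.5 ± 11.3 CPM (counts scaled to library size) in SREBF1-targeting and 233.0 ± 16.2 CPM in control libraries (SD, n = 3 each). It fell, with a log2 ratio of -1.78 (adjusted p = 0.00164 in edgeR). In RNA from whole cultures, fewer cells of a type and less RNA per cell cannot be told apart. All 7 melanoma and pigment cell markers were detected, with a summed level of 3966.8 to 5176.3 TPM (scaled counts per exon length) in SREBF1-targeting and 4455.6 to 5643.0 TPM in control libraries. Some markers of other cell types were under 1 TPM in every library, namely COL1A1 and DCN of fibroblasts, KRT5 and KRT1 of keratinocytes, PTPRC, CD3E and CD68 of immune cells, and PECAM1, CDH5 and VWF of endothelium. The rest reached 1 TPM in at least 1 library, namely COL1A2, PDGFRB and LUM of fibroblasts, KRT14 and KRT10 of keratinocytes, CD14 of immune cells and KDR of endothelium. With all markers of a type summed, levels were 308.7 to 390.4 TPM in SREBF1-targeting and 322.0 to 389.8 TPM in control libraries for the 5 fibroblast markers. The 4 keratinocyte markers summed to 41.2 to 52.6 and 39.1 to 42.0 TPM on those sides, the 4 endothelial markers to 22.3 to 35.0 and 22.4 to 24.9 TPM, and the 4 immune markers to 0.514 to 2.15 and 0.390 to 1.07 TPM. The part of these markers in the results was not tested.

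The HIF core ACGTG or GCGTG was looked for on both strands of promoter windows from RefSeq (GRCh38.p14), which run from 250 bases before to 50 after an annotated start of a gene. Of the 39 genes, 34 had windows, 62 in all, and 42 of these windows (67.7%) held a core, against 48.4% of all 35116 windows. Some cores overlap the letters CACGTG, which other factors also bind and which 12.9% of the genes' windows and 7.26% of all windows held. At least 1 window had a core in 31 of the 34 genes, and EGLN3, P4HA2 and PGAM1 had none in their windows. The matching share of all genes was not computed, and a gene with more windows has more places for a match, so nothing is read from this count. SLC16A1, BNIP3L, SLC2A3, NDRG1 and VEGFA had no entry. The windows of 5 genes follow, picked for the values described here, and none of the 5 passed in a main fit. CA9 (chr9:35673678-35673977, plus strand), with a core 18 bases before the start on the opposite strand, varied most between libraries among the tested genes. ENO2 (chr12:6914330-6914629, plus strand) and EPAS1 (chr2:46297157-46297456, plus strand) were highest with siSREBF1. EGLN1 (chr1:231422238-231422537, minus strand) was higher in every SREBF1-targeting library than in every control, and PGAM1 (chr10:97427568-97427867, plus strand), with no core in this window, was lowest with siSREBF1. The windows of ENO2, EPAS1 and PGAM1 begin downstream of the first base of the gene in GENCODE release 44 (6913745, 46293667 and 97426191). The bases around those positions were not searched. Capitals mark the core, and a match is a description of the letters and not evidence of binding.
CA9: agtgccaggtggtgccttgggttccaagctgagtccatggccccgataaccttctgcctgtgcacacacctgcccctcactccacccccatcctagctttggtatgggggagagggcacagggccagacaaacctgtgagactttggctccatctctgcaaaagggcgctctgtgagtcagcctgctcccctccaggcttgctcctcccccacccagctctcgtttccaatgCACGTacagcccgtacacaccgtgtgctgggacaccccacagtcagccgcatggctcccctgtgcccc
ENO2: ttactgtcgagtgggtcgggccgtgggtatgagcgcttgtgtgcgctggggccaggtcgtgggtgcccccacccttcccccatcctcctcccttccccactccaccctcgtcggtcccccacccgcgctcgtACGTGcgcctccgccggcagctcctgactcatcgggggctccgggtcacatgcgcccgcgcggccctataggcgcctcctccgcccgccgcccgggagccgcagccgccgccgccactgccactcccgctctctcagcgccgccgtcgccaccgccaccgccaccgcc
EPAS1: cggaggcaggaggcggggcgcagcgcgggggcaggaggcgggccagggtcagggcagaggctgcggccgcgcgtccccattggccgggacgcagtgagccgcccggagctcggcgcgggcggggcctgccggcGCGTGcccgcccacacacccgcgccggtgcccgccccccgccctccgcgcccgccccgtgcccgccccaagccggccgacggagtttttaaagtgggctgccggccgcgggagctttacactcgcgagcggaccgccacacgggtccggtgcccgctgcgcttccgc
EGLN1: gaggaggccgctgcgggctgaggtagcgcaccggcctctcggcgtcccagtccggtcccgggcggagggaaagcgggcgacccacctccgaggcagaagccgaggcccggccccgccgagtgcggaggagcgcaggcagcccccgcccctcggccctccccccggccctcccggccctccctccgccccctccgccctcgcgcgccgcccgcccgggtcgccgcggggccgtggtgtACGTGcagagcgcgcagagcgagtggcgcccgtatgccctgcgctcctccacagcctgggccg
PGAM1: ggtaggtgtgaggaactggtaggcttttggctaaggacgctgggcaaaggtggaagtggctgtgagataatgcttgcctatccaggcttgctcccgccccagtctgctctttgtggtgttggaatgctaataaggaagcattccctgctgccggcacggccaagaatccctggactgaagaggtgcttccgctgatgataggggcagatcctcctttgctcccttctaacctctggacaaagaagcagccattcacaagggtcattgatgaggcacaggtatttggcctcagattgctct

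Per length, the genes spanned from the most abundant enzymes of the cell to near silence. GAPDH, which oxidises glyceraldehyde phosphate, led with 8755.7 to 11300.7 TPM over the 6 libraries. TPI1, the triose isomerase, had 1742.1 to 1988.3 TPM, ENO1, the main enolase, 1671.9 to 1892.9 TPM, and PKM, pyruvate kinase, 1527.1 to 1639.3 TPM. The ranges of TPI1 and ENO1 overlapped, so their order was not set beyond the spread, whereas GAPDH stood above all the others in each library. LDHA, which makes lactate, had 1155.8 to 1515.0 TPM and PGK1, phosphoglycerate kinase, 768.9 to 872.1 TPM. HIF1A, the alpha subunit of the first HIF, had 562.5 to 740.7 TPM, far above EPAS1, which encodes the alpha subunit of the second, with 30.9 to 54.3 TPM. At the low end stood SLC16A3, the lactate exporter MCT4, with 3.68 to 7.26 TPM, EGLN3, an oxygen-sensing prolyl hydroxylase, with 0.558 to 1.06 TPM, and CA12, a carbonic anhydrase of the cell surface, with 0.0420 to 0.296 TPM. CA12 rested on 7, 7 and 2 reads in siSREBF1, ASO-SREBF1-S1 and ASO-SREBF1-S4, against 2, 2 and 1 in siNegative, ASO-Neg and mock, and a count of 3 was worth 0.0626 to 0.232 CPM, so no difference could be read from it.

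**Figure D1:**
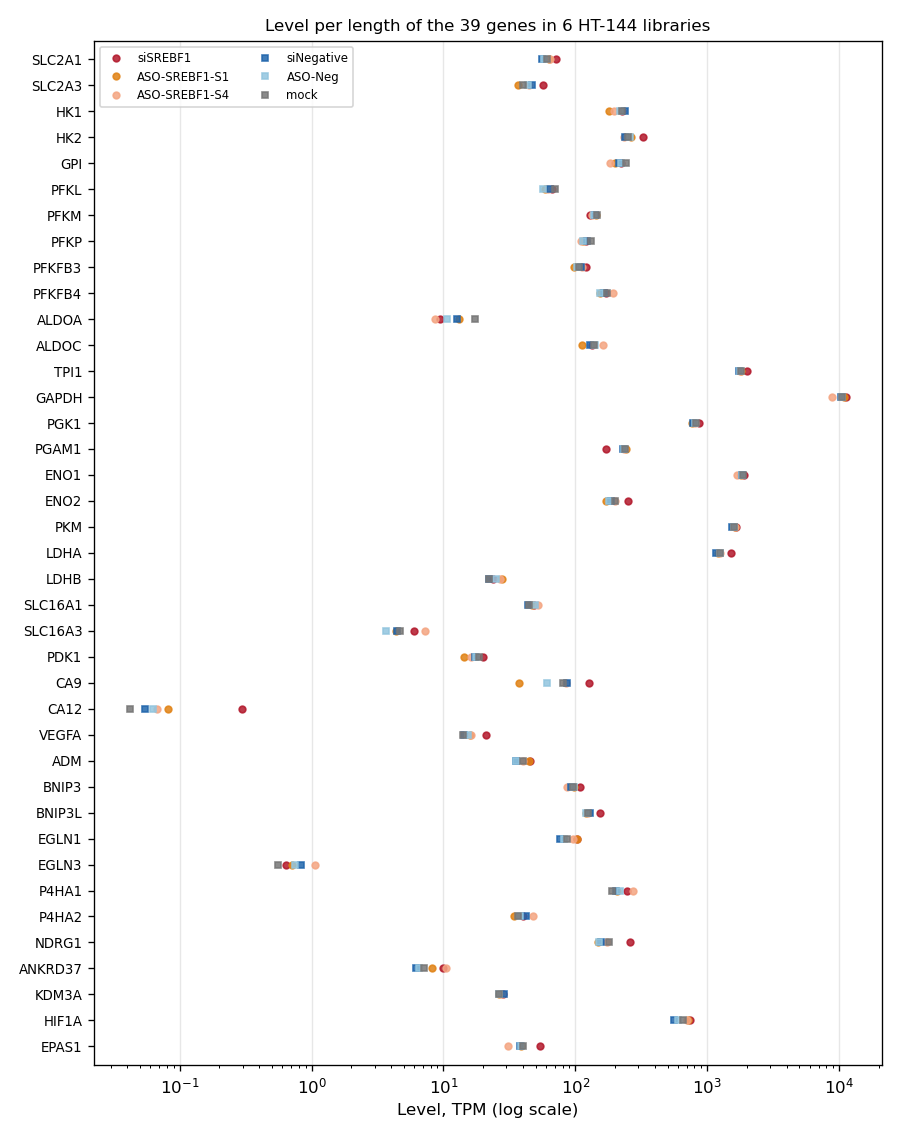
Level of each of the 39 genes in the 6 HT-144 libraries, in TPM on a log axis, with circles for the SREBF1-targeting and squares for the control libraries. GAPDH lies highest, at 8755.7 to 11300.7 TPM, and CA12 lowest, at 0.0420 to 0.296 TPM, and the libraries of most genes lie close together on this scale.

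Counts of some of these genes depend on neighbours in the annotation. ALDOA, an aldolase, shared 42.8% of its exon bases with ENSG00000285043 on the same strand, and LDHB, the heart-type lactate dehydrogenase subunit, shared 33.4% with ENSG00000285854. Reads that fall in the exons of both genes are not assigned by this kind of counting. The 8.60 to 17.3 TPM of ALDOA and the 22.0 to 27.7 TPM of LDHB are therefore uncertain, and such a loss could only make them too low. Sums and shares that hold these genes carry the same limit. ANKRD37 shared 40.3% of its exon bases with UFSP2 and CA9 35.7% with ARHGEF39, both on the opposite strand, which stranded counting separates except for reads on the wrong strand. Annotated pseudogenes of the 39 genes held at most 0.737% of a gene's own counts, for BNIP3.

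Isoenzyme use was alike in broad terms in the 6 libraries. HK2, the inducible hexokinase, made up 59.2, 59.4 and 54.0% of HK1 and HK2 transcripts in siSREBF1, ASO-SREBF1-S1 and ASO-SREBF1-S4, against 50.1, 54.4 and 52.9% in siNegative, ASO-Neg and mock. The sides overlapped in this share, since ASO-SREBF1-S4 lay just under ASO-Neg. LDHB was 1.55 to 2.23% of the lactate dehydrogenase subunits, within the limit on its counts given above. ENO2, the neuronal enolase, was 8.61 to 11.7% of ENO1 and ENO2. PFKM, the muscle form of phosphofructokinase, was 40.7 to 45.2% of the 3 subunits, with PFKP, the platelet form, at 35.8 to 38.4% and PFKL, the liver form, at 18.3 to 20.9%. EPAS1 was 4.22 to 6.84% of both alpha subunits. Of the pyruvate dehydrogenase kinases, which inactivate pyruvate dehydrogenase, PDK1 was 9.65 to 12.2% and PDK4 was 76.4 to 83.7%. These shares divide counts by all annotated exon bases of a gene, 14845 for PDK1 and 6026 and 2983 for LDHA and LDHB. Annotated exons that the cells do not use would lower a gene's share, which was not examined. Summed over 17 glycolytic enzymes, with both lactate dehydrogenase subunits among them, the level was 20886, 19607 and 17428 TPM in siSREBF1, ASO-SREBF1-S1 and ASO-SREBF1-S4, against 18888, 19414 and 19568 TPM in siNegative, ASO-Neg and mock. Without GAPDH the sums were 9585, 8734 and 8672 TPM, against 8641, 8833 and 8985 TPM, so the low sum of ASO-SREBF1-S4 was largely its GAPDH, at 8755.7 TPM.

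With all 3 SREBF1-targeting libraries set against all 3 controls, none of the 38 genes passed. By the quasi-likelihood test of edgeR, 0 genes of the list had an adjusted p under 0.05, where 0.0595% of all 15123 genes did, and none did with DESeq2 or limma-voom either. Before adjustment, 5 genes of the list (13.2%) had a p under 0.05, a share near the background of 10.2%, with 3 higher against 4.93% of all genes and 2 lower against 5.30%. The median log2 ratio of the 38 genes was 0.014, against 0.006 for all genes tested, and 23 of 38 lay above 0, against 51.5% of all genes. The median turned to -0.051 without siSREBF1 and was 0.083 without ASO-SREBF1-S1. The count of 5 genes became 9 without ASO-SREBF1-S1, 2 without siNegative and 1 with chemistry (siRNA, ASO or mock) as a term.

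In 8 of the 38 genes (21.1%) the sides did not overlap, a share near the 17.4% of all genes, and none of the 8 passed. The SREBF1-targeting libraries were all above the controls in 3 of them, EGLN1, HIF1A and ANKRD37, or 7.89% of the list against 8.87% of all genes. EGLN1, the main prolyl hydroxylase that marks HIF alpha subunits (chromosome 1, 231363751 to 231422287), had 139.5 CPM with siSREBF1, 140.8 with ASO-SREBF1-S1 and 134.4 with ASO-SREBF1-S4, against 108.4 with siNegative, 116.9 with ASO-Neg and 124.5 in mock. HIF1A (chromosome 14, 61695513 to 61748259) had 961.6, 945.9 and 938.3 CPM in the same SREBF1-targeting libraries, against 766.2, 826.5 and 899.9 CPM in the controls. For both genes every SREBF1-targeting library was above every control, and the controls were the more scattered side. EGLN1 averaged 138.2 ± 3.41 and 116.6 ± 8.02 CPM (SD, n = 3 each), a log2 ratio of 0.25 (adjusted p = 0.292 in edgeR, SE 0.0715). HIF1A averaged 948.6 ± 11.9 and 830.9 ± 66.9 CPM (SD, n = 3 each), a log2 ratio of 0.19 (adjusted p = 0.450 in edgeR, SE 0.0797). ANKRD37, a small HIF target of the ankyrin type, had 5.60, 4.69 and 6.15 CPM, against 3.70, 3.94 and 4.32 CPM, a log2 ratio of 0.45 (adjusted p = 0.394 in edgeR, SE 0.165). ANKRD37 was the least abundant of the 3.

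In the opposite direction, 5 genes had all SREBF1-targeting libraries below all controls, which was 13.2% of the list and 8.52% of all genes. They were HK1, the constitutive hexokinase, GPI, the glucose phosphate isomerase, PFKM, PFKP and ENO1, and 17 of the 38 genes tested are glycolytic enzymes. HK1 had 390.2, 315.4 and 352.9 CPM in siSREBF1, ASO-SREBF1-S1 and ASO-SREBF1-S4, against 429.2, 398.4 and 413.1 CPM in siNegative, ASO-Neg and mock. Its log2 ratio was -0.23 (adjusted p = 0.416 in edgeR, SE 0.0878). GPI had 592.8, 544.6 and 510.5 CPM, against 609.8, 631.5 and 694.7 CPM, a log2 ratio of -0.23 (adjusted p = 0.385 in edgeR, SE 0.0847). For both genes the gap between the sides was narrow, set by siSREBF1 on one side and by ASO-Neg (HK1) or siNegative (GPI) on the other. PFKM, PFKP and ENO1 had log2 ratios of -0.12, -0.15 and -0.10. The 17 glycolytic enzymes had a median log2 ratio of -0.082, with 12 below 0, and the 21 other genes tested had 0.045, with 18 above 0. The medians of the 17 enzymes and of the other 21 genes were -0.036 and 0.213 in siSREBF1 over controls and -0.07 and 0.028 in the ASO pair over controls, fits that share the controls. Over the matched negative controls these medians were -0.015 and 0.213 for siSREBF1 and -0.053 and 0.138 for ASO-SREBF1-S4. In ASO-SREBF1-S1 over ASO-Neg they were -0.042 and -0.06, so there the enzymes were not the lower group. Without SREBF1 targeting, siNegative over mock had medians of -0.085 for the enzymes (16 below 0) and -0.056 for the other genes (12 below 0). ASO-Neg over mock had -0.033 (13 below 0) and -0.059 (14 below 0). The difference between these medians was not tested.

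**Figure D2:**
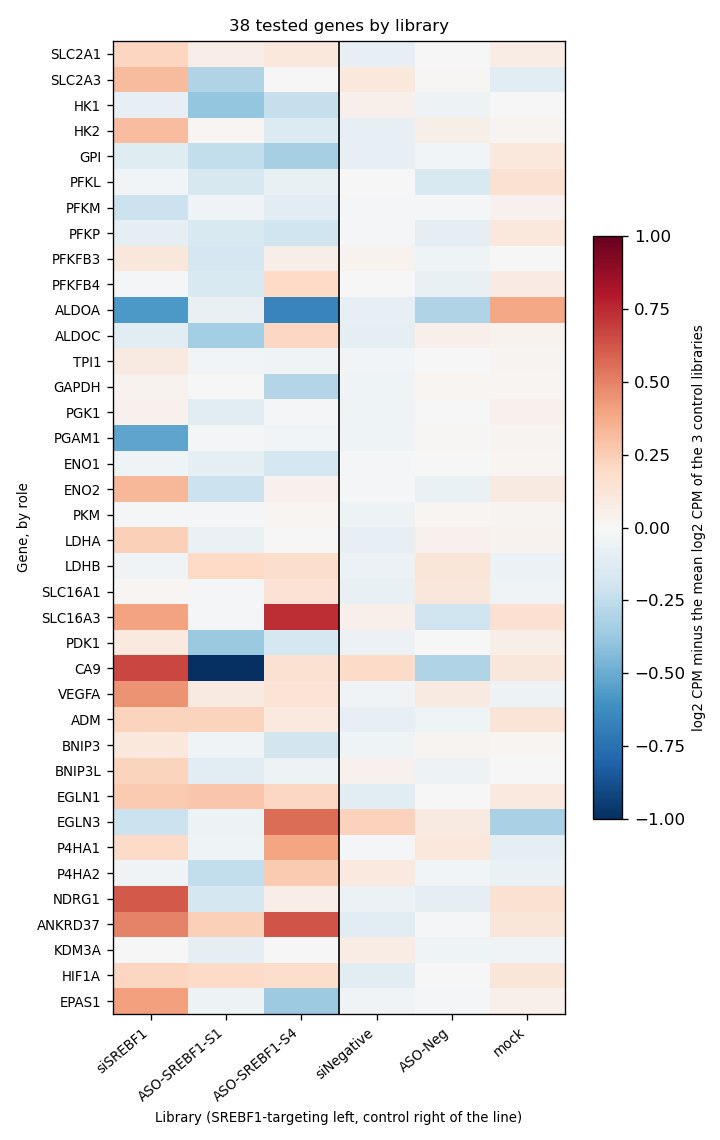
Deviation of each of the 38 tested genes from the mean of the control libraries, in log2 CPM, with SREBF1-targeting libraries left and control libraries right of the line and genes in order of role. NDRG1, EPAS1, VEGFA and ENO2 have their highest and PGAM1 its lowest value in the siSREBF1 column, and CA9 has its lowest value, 15.2 CPM, with ASO-SREBF1-S1.

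The siRNA library was where these genes most often had their highest level. Of the 38 genes, 18 were highest in siSREBF1 among the 6 libraries, or 47.4%, against 19.0% of all genes, and 2 were lowest there, against 18.5% of all genes. The 18 held glucose transporters (SLC2A1, SLC2A3), glycolytic enzymes (HK2, TPI1, GAPDH, PGK1, ENO2), a regulator of phosphofructokinase (PFKFB3), LDHA and PDK1, acid and vessel genes (CA9, VEGFA, ADM), both mitophagy receptors (BNIP3, BNIP3L), NDRG1 and both HIF alpha subunits. In contrast, 14 genes were lowest in ASO-SREBF1-S1, or 36.8%, against 17.4% of all genes, and 8 were highest in mock, 21.1% against 16.7%. These are places in an order of single libraries, and what set siSREBF1 apart (the reagent, its dose or the culture) cannot be told apart.

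Fitted as a class of its own against the 3 controls, siSREBF1 gave 0 genes of the list past an adjusted p of 0.05, where 0.397% of all genes passed. Its spread was taken from the ASO pair and the controls, since siSREBF1 was 1 library. Before adjustment, 10 of 38 genes (26.3%) had a p under 0.05, against 9.77% of all genes. Of these 8 were higher in siSREBF1, against 4.75% of all genes, and 2 lower, against 5.02%. The median log2 ratio was 0.094 for the list and 0.00 for all genes. With ASO-SREBF1-S1 or ASO-SREBF1-S4 left out, 6 genes passed, namely NDRG1, VEGFA, EPAS1, CA9, ENO2 and PGAM1, but the spread then came from the 3 controls alone. With any one control left out, none passed. Without the filter on low counts CA9, NDRG1 and PGAM1 passed.

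NDRG1, a HIF target that is also a stress and differentiation gene (chromosome 8, 133237175 to 133302022), had 790.7 CPM with siSREBF1, 457.8 with ASO-SREBF1-S1 and 540.7 with ASO-SREBF1-S4, against 496.1 with siNegative, 483.0 with ASO-Neg and 574.0 in mock. The siSREBF1 library stood well above the other 5, and the ASO libraries lay among the controls (ASO-SREBF1-S4) or just under them (ASO-SREBF1-S1). Its log2 ratio was 0.61 (adjusted p = 0.131 in edgeR, SE 0.133) over the controls and 0.67 over siNegative, with a 95% counting interval of 0.63 to 0.71. VEGFA, the vessel growth factor (chromosome 6, 43770184 to 43786487), had 75.9, 59.1 and 61.2 CPM, against 54.2, 59.2 and 53.8 CPM. Its 3 SREBF1-targeting values missed standing clear of the controls by ASO-Neg, just above ASO-SREBF1-S1. In siSREBF1 over the controls, its log2 ratio was 0.45 (adjusted p = 0.127 in edgeR, SE 0.0956).

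EPAS1 (chromosome 2, 46293667 to 46386697) had 99.9 CPM with siSREBF1, 72.7 with ASO-SREBF1-S1 and 58.5 with ASO-SREBF1-S4, against 73.5 with siNegative, 74.7 with ASO-Neg and 77.8 in mock. The controls lay close together, with siSREBF1 above and both ASO libraries below all of them. The log2 ratio of siSREBF1 over the controls was 0.41 (adjusted p = 0.297 in edgeR, SE 0.123). HK2 (chromosome 2, 74834127 to 74893359) had 486.3, 397.8 and 356.9 CPM, against 370.2, 409.5 and 399.8 CPM. ENO2 (chromosome 12, 6913745 to 6923698) had 271.4, 186.1 and 222.1 CPM, against 212.3, 206.0 and 228.8 CPM. For both genes siSREBF1 was above the control range, while 1 ASO library lay inside it and 1 below it, ASO-SREBF1-S4 for HK2 and ASO-SREBF1-S1 for ENO2. SLC2A3, a high-affinity glucose transporter, and BNIP3L, a mitophagy receptor, had log2 ratios of 0.31 and 0.22 over the controls, neither past the threshold.

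PGAM1, phosphoglycerate mutase (chromosome 10, 97426191 to 97433444), was lowest in siSREBF1. It had 110.0 CPM with siSREBF1, 156.2 with ASO-SREBF1-S1 and 155.5 with ASO-SREBF1-S4, against 154.2 with siNegative, 159.7 with ASO-Neg and 161.5 in mock. The other 5 libraries lay close together, all far above siSREBF1. The log2 ratio of siSREBF1 over the controls was -0.53 (adjusted p = 0.0607 in edgeR, SE 0.0889), the smallest adjusted p of the list in any of the 4 fits. Over the ASO pair it was -0.50 (adjusted p = 0.112 in edgeR, SE 0.0930). PGAM1 has 13 annotated pseudogenes, which held 0.315% of its counts, and reads shared with them are uncertain. PFKM was the other gene lowest in siSREBF1, at 234.9 CPM, with 266.4 and 253.0 CPM in ASO-SREBF1-S1 and ASO-SREBF1-S4, against 268.6, 268.5 and 281.1 CPM in siNegative, ASO-Neg and mock.

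**Figure D3:**
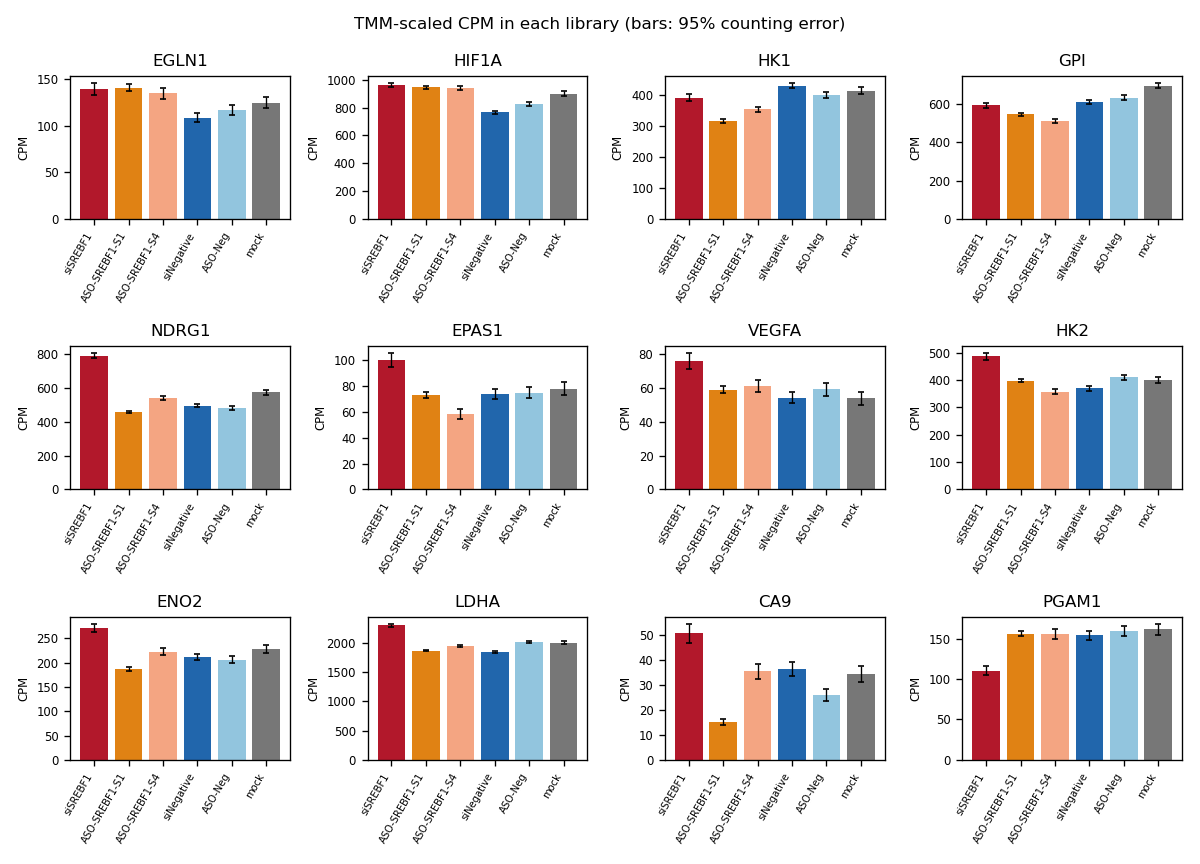
TMM-scaled CPM of 12 genes in each library, SREBF1-targeting libraries left of the controls, as bars from 0 with 95% counting error and no replicate error. EGLN1 and HIF1A are higher in all 3 SREBF1-targeting libraries than in any control and HK1 and GPI lower, whereas NDRG1, EPAS1, VEGFA, HK2, ENO2, LDHA and CA9 are highest and PGAM1 lowest in siSREBF1.

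siSREBF1 against the ASO pair, both of which lowered SREBF1, again gave 0 genes of the list past an adjusted p of 0.05, where 0.145% of all genes passed. Before adjustment, 10 of 38 (26.3%) had a p under 0.05, against 8.85% of all genes. Of these 9 were higher in siSREBF1, against 4.41% of all genes, and PGAM1 was lower, against 4.44%. The median log2 ratio was 0.092 for the list and -0.002 for all genes, and 28 of 38 genes lay above 0, against 49.7% of all genes. The largest difference was that of CA9, the tumour carbonic anhydrase (chromosome 9, 35673928 to 35681159), which had 50.8, 15.2 and 35.5 CPM in siSREBF1, ASO-SREBF1-S1 and ASO-SREBF1-S4. In siNegative, ASO-Neg and mock it had 36.4, 25.9 and 34.5 CPM, so both ends of its range were SREBF1-targeting libraries, 3.34-fold apart. The log2 ratio of siSREBF1 over the ASO pair was 1.05 (adjusted p = 0.473 in edgeR, SE 0.403), and it was 1.74 when ASO-SREBF1-S4 was left out. NDRG1 and EPAS1 had log2 ratios of 0.66 and 0.60 in this contrast (adjusted p = 0.180 each in edgeR). The calls depended on the ASO libraries, since 4 genes passed without ASO-SREBF1-S1, 7 without ASO-SREBF1-S4 and 4 without the low-count filter.

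Against the controls, the ASO pair gave 0 genes of the list past an adjusted p of 0.05, where 0.0397% of all genes passed, and 4 of 38 had a p under 0.05 before adjustment, or 10.5% against 11.6%. Of all genes, 6.20% were lower and 5.36% higher by that rule. HK1, GPI and PDK1 were lower, with log2 ratios of -0.31 (adjusted p = 0.235 in edgeR, SE 0.0829), -0.29 (adjusted p = 0.287 in edgeR, SE 0.0882) and -0.27 (adjusted p = 0.293 in edgeR, SE 0.0843), and EGLN1 was higher at 0.24. All 9 genes of upper glycolysis, from hexokinase to triose isomerase, lay below 0, as did 7422 of all 15123 genes. Their median was -0.124, against 0.004 for all genes, though ALDOA among them is uncertain in its counts. Over ASO-Neg, ASO-SREBF1-S1 had 8 of these 9 genes below 0 with a median of -0.042. ASO-SREBF1-S4 had 7 below 0 with a median of -0.113. Between controls, siNegative over mock had 8 below 0 with a median of -0.125. ASO-Neg over mock had 7 below 0 with a median of -0.066. These libraries also enter the ASO pair over controls, so the values are not independent of it. Over the list, 14 of 38 genes lay above 0, against 50.9% of all genes. Its median was -0.053 and turned to 0.014 without ASO-SREBF1-S1. With 1 ASO left out, 4 genes passed in each case and they were not the same genes. EPAS1, GPI, P4HA1 and SLC16A3 passed with ASO-SREBF1-S4 alone, and ALDOC, CA9, HK1 and PDK1 with ASO-SREBF1-S1 alone, the spread then resting on the controls.

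Each SREBF1-targeting library was also set beside its own negative control, where 1 library meets 1 library and no test exists. A gene was called by size when its log2 ratio was at least 0.5 either way with 10 CPM or more in 1 of the libraries, which 36 of the 39 genes could reach. siSREBF1 over siNegative called NDRG1 higher and no gene lower, against 1.78% and 2.10% of all genes. With the unstranded counts or with library totals alone, 3 genes were called there. ASO-SREBF1-S1 over ASO-Neg called CA9 lower, at -0.77 (95% counting interval -0.94 to -0.59), and no gene higher, against 2.24% and 1.28% of all genes. ASO-SREBF1-S4 over ASO-Neg called SLC16A3 higher, at 0.93 (0.65 to 1.23), with 17.4 CPM against 9.07 CPM. No gene was lower there, and 3.06% and 2.26% of all genes were higher and lower. No gene of the list reached a log2 ratio of 1 in size, against 0.517, 0.481 and 0.700% of all genes in the 3 contrasts. The ASO contrasts share ASO-Neg, whose CA9 and SLC16A3 values were the lowest of the controls.

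In those contrasts, 25, 8 and 21 of 38 genes lay above 0 in siSREBF1, ASO-SREBF1-S1 and ASO-SREBF1-S4, where 49.5, 52.6 and 51.3% of all genes did. The medians were 0.106, -0.059 and 0.036. The 5 hydroxylases include the collagen enzymes P4HA1 and P4HA2 and the histone demethylase KDM3A. All 5 lay above 0 in ASO-SREBF1-S4 with a median of 0.289, though the counting intervals of EGLN3 and KDM3A included 0. In ASO-SREBF1-S1, 1 of 5 lay above 0. The median there, -0.140, was the value of EGLN3, with a counting interval of -0.84 to 0.58. In siSREBF1, 2 of 5 lay above 0 with a median of -0.08. P4HA1 had 191.2, 162.6 and 220.4 CPM in siSREBF1, ASO-SREBF1-S1 and ASO-SREBF1-S4, against 165.0, 180.3 and 157.5 CPM in siNegative, ASO-Neg and mock. Counting intervals lay above 0 in all 3 contrasts for 2 of the 38 genes, EGLN1 with log2 ratios of 0.36, 0.27 and 0.20 and HIF1A with 0.33, 0.19 and 0.18. They lay below 0 in all 3 for HK1 (-0.14, -0.34 and -0.17), PFKP (-0.07, -0.07 and -0.11) and ENO1 (-0.03, -0.08 and -0.17). Of all genes tested, 1.75% had all 3 intervals above 0 and 3.76% all 3 below, against 5.26% and 7.89% of the list. Among the 10080 genes with 10 CPM or more in a library the shares were 2.36% and 5.55%, against 5.56% and 8.33% of the 36 such genes of the list. Abundant genes have narrow counting intervals, and nothing particular to the list is read from 2 and 3 genes. The negative controls differed from mock on the same scale. siNegative over mock had a median of -0.077 and ASO-Neg over mock -0.05, and 10 and 11 of 38 genes lay above 0, against 50.1 and 49.6% of all genes. HIF1A had log2 ratios of -0.23 and -0.12 there and EGLN1 -0.20 and -0.09, and siNegative was the lowest of the 6 libraries for both. ASO-Neg over mock called ALDOA lower by size, at -0.69, on the uncertain counts given above, and no gene higher, against 0.911% and 0.276% of all genes. siNegative over mock called none, where 0.673% of all genes were higher and 0.143% lower. None reached 1 in size over mock, against 0.0102% of all genes for siNegative and 0.0921% for ASO-Neg.

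**Figure D4:**
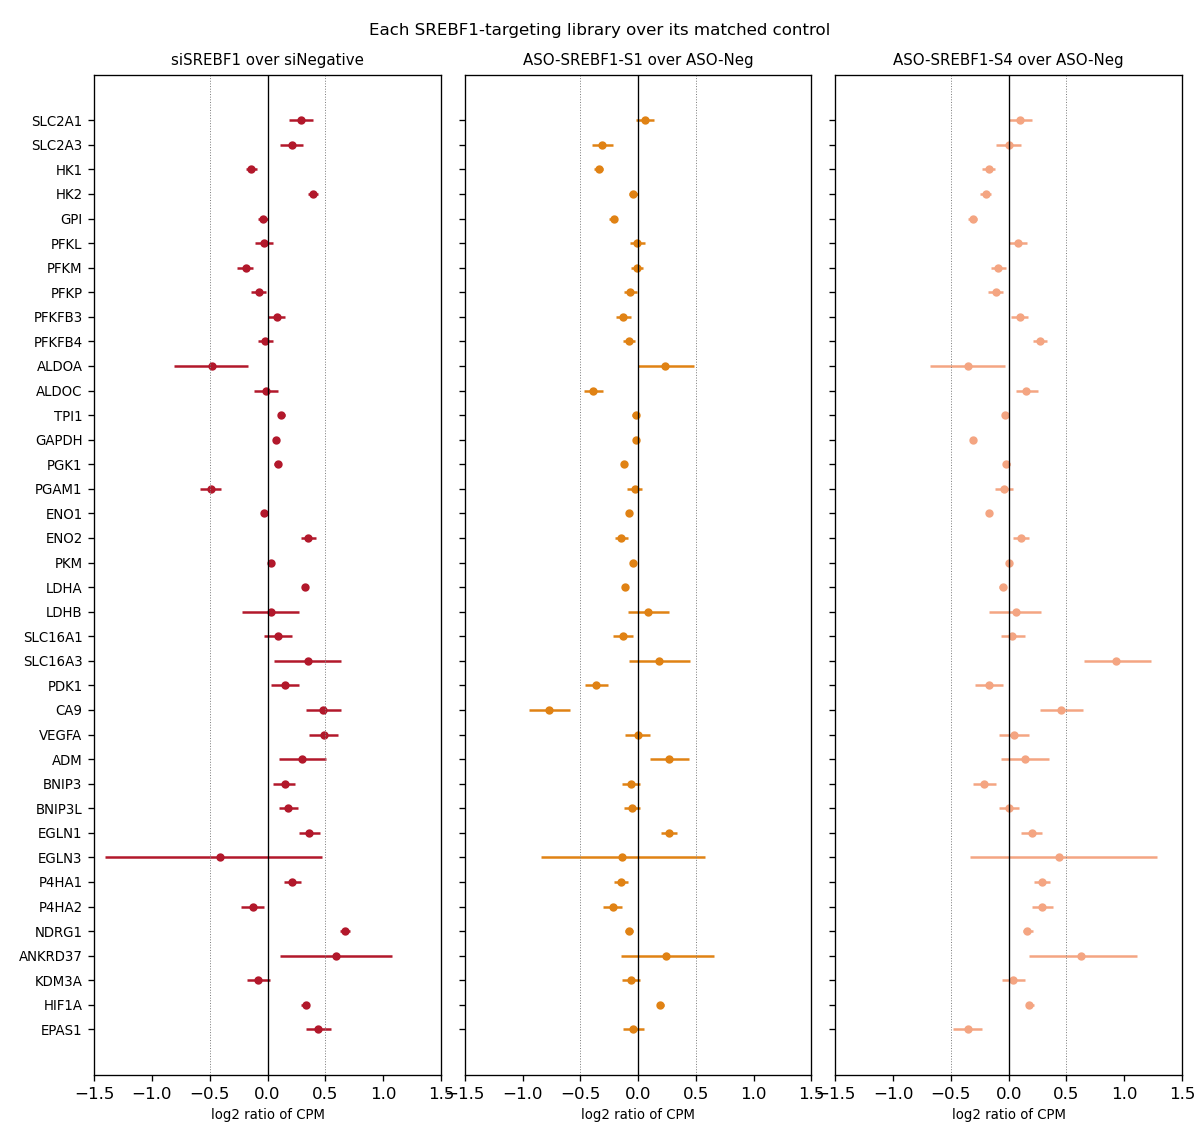
Log2 ratio of CPM for each of the 38 tested genes in siSREBF1 over siNegative, ASO-SREBF1-S1 over ASO-Neg and ASO-SREBF1-S4 over ASO-Neg, with 95% counting intervals and dotted lines at the size rule of 0.5. NDRG1 at 0.67 in the siRNA contrast, CA9 at -0.77 in the ASO-SREBF1-S1 contrast and SLC16A3 at 0.93 in the ASO-SREBF1-S4 contrast lie past the lines.

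The spread over the 6 libraries was near that of other genes. Over the 36 genes with 10 CPM or more in a library, the highest library was a median of 1.27-fold the lowest, against 1.25-fold for 10080 such genes, and 16.7% spread over more than 1.5-fold, against 13.9%. PKM was the steadiest of the abundant enzymes, with 3541.7, 3540.3 and 3637.1 CPM in siSREBF1, ASO-SREBF1-S1 and ASO-SREBF1-S4, against 3462.2, 3637.2 and 3642.2 CPM in siNegative, ASO-Neg and mock. KDM3A ran from 89.5 to 100.9 CPM. SLC2A1, the basal glucose transporter, had 118.7, 107.1 and 109.9 CPM, against 97.0, 102.6 and 107.9 CPM. LDHA had 2300.9, 1866.2 and 1940.4 CPM, against 1842.1, 2013.3 and 2001.8 CPM, highest in siSREBF1 with the ASO libraries among the controls. PFKFB3 and PFKFB4, which set the level of the sugar bisphosphate that activates phosphofructokinase, had log2 ratios of 0.00 and 0.01 in SREBF1-targeting over control libraries. PFKL ran from 135.3 to 168.3 CPM, PFKFB3 from 153.7 to 187.0 CPM and PFKFB4 from 238.9 to 304.9 CPM. BNIP3, a mitophagy receptor, ran from 90.5 to 110.8 CPM. ALDOC, the brain aldolase, from 74.8 to 109.0 CPM, P4HA2, from 88.1 to 125.5 CPM, and PDK1, from 54.7 to 75.4 CPM, spread more widely, 1.46-, 1.42- and 1.38-fold between the lowest and the highest library. SLC16A1, the lactate carrier MCT1, ran from 73.2 to 85.2 CPM and ADM, the vessel-active peptide adrenomedullin, from 21.6 to 26.7 CPM.

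Other genes of the pathway, taken from lists made for this work, gave few calls. In SREBF1-targeting over control libraries none passed an adjusted p of 0.05 in the main edgeR fit. Tested were 31 genes of other glycolysis and pyruvate enzymes, 17 of HIF pathway control, 29 of other HIF targets and 5 of glucose sensing. Their median log2 ratios were -0.052, 0.066, 0.009 and -0.026. In siSREBF1 over controls, 2 of the 31 passed, both lower. SLC2A6, a glucose transporter family member, had 7.61, 10.9 and 9.72 CPM in siSREBF1, ASO-SREBF1-S1 and ASO-SREBF1-S4, against 17.0, 17.5 and 18.1 CPM in siNegative, ASO-Neg and mock. It fell in siSREBF1, with a log2 ratio of -1.20 (adjusted p = 0.0268 in edgeR, SE 0.162), and with all SREBF1-targeting libraries together its log2 ratio was -0.87 (adjusted p = 0.0751 in edgeR, SE 0.135). DLAT, a subunit of the pyruvate dehydrogenase complex, named after its values were seen, had 45.9, 67.0 and 66.2 CPM, against 72.6, 78.1 and 81.2 CPM, and fell with a log2 ratio of -0.75 (adjusted p = 0.0292 in edgeR, SE 0.103). Both calls were lost with any one control left out, at adjusted p of 0.137 to 0.181.

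Of the same lists, the smallest unadjusted p in SREBF1-targeting over control libraries belonged to genes that did not pass in the main edgeR fit. PDP1, the phosphatase that reactivates pyruvate dehydrogenase, had 127.1, 139.9 and 117.6 CPM in siSREBF1, ASO-SREBF1-S1 and ASO-SREBF1-S4, against 93.2, 102.5 and 89.5 CPM in siNegative, ASO-Neg and mock (log2 ratio 0.43, SE 0.0856, adjusted p = 0.154 in edgeR). All SREBF1-targeting values of PDP1 were above all controls. With DESeq2, which passed more of all genes, PDP1 (log2 ratio 0.43, adjusted p = 0.00649) and SLC2A6 (-0.88, adjusted p = 5.16e-05) passed. SLC2A6 also passed in edgeR without ASO-SREBF1-S1 (log2 ratio -1.01, adjusted p = 0.013). PDP2, its relative, had a log2 ratio of -0.22 and PYGB, a glycogen phosphorylase, 0.34. RACK1, MXI1, ARNT (the stable partner of the HIF alpha subunits) and CITED2 had -0.25, 0.16, 0.14 and 0.36. Among other HIF targets, IGFBP3, FLT1, NDUFA4L2 and MIF had -0.43, 0.33, 0.55 and -0.29. The glucose-sensing genes MLXIP, TXNIP, ARRDC4 and MLX had -0.18, -0.25, 0.07 and -0.03.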

How the data were processed

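The authors deposited raw gene counts as whole numbers, 1 file for each lane. The submitters' processing notes name STAR 2.6.1a, FastQC and the build GRCh38, and the sources used here do not give the annotation release. The column of the reverse strand was used, since the other strand held 6.47 to 7.79% of the counts of both. Of all read pairs, 80.65 to 81.82% were in genes, and summary lines for reads with no gene were left out. The labels number the 4 files of a treatment as replicates, but the deposited files carry lane numbers of 1 library. These lanes differed by little more than sampling noise (chi-square per degree of freedom 1.001 to 1.078, against 2.03 to 9.78 between libraries) and were summed, so each treatment was 1 sample. Symbols, coordinates and exon lengths came from GENCODE release 44, which matched 58207 identifiers with 99.93% of the counts.

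Models were fitted in R 4.3.3 by edgeR 4.0.16 after TMM scaling and filterByExpr, with the 2-sided quasi-likelihood F test and Benjamini-Hochberg adjustment over all 15123 genes at 0.05, and were checked on simulated data. One fit compared 2 sides and one held 3 classes (siSREBF1, ASO pair, controls). SE is the log2 ratio over the root of F. CPM was computed with TMM scaling, TPM from the union of a gene's annotated exons, and single-library log2 ratios with a prior count of 2 and exact 95% intervals. Intervals cover counting error only, without molecular identifiers. DESeq2 1.42.0 and limma 3.58.1 were alternatives, with other scaling, strand, filter and lane choices.

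All 39 genes were described by rule. From each other list up to 4 genes were named by the threshold and then the smallest p, with any called at 1 or more in a matched contrast. The genes, lists and rules were chosen with earlier results of these data known.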

Additional observations from a re-analysis of the deposited data

Results flagged for a closer look

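In 5 genes the siRNA and the ASO contrasts ran in opposite directions, with every counting interval on its own side of 0: above 0 in siSREBF1 over siNegative and below 0 in both ASO libraries over ASO-Neg. They were 13.2% of the list, where 1.46% of all 15123 genes had the siRNA interval on one side of 0 and both ASO intervals on the other. Among genes with 10 CPM or more in a library the shares were 13.9% of the list and 2.07% of all, and intervals of abundant genes such as GAPDH are narrow, so that small differences meet this rule. HK2 had log2 ratios of 0.39 in the siRNA contrast and -0.04 and -0.20 in the contrasts of ASO-SREBF1-S1 and ASO-SREBF1-S4. LDHA had 0.32, -0.11 and -0.05, PDK1 0.15, -0.36 and -0.17, TPI1 0.12, -0.02 and -0.03, and GAPDH 0.07, -0.02 and -0.31. The intervals cover counting error and not the spread between cultures, and the ASO contrasts share ASO-Neg. The difference between the contrasts was not tested. In the related comparison of siSREBF1 with the ASO pair, none of the 5 passed in edgeR's quasi-likelihood test, with adjusted p of 0.362 for HK2, 0.569 for LDHA, 0.357 for PDK1, 0.833 for TPI1 and 0.849 for GAPDH.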

How the results depend on the processing

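With 1 library per treatment, differences between cultures could not be measured. No paired analysis was possible because the replicate numbers mark lanes of 1 library, which were summed. Medians of the genes kept their sign in all 4 fits under the scaling and filter choices. The tool, strand and lane choices were run only for SREBF1-targeting over control libraries, where the median also kept its sign. Without ALDOA and LDHB, an alternative added after seeing the data, the medians kept their sign in all 4 fits (0.014, -0.053, 0.103 and 0.10 in SREBF1-targeting over control, ASO pair over controls, siSREBF1 over ASO pair and siSREBF1 over controls). With 1 library left out they ran from -0.051 to 0.083, -0.072 to 0.014, 0.092 to 0.142 and 0.067 to 0.105. Without S1 or S4, the lone ASO library was assumed to vary like the controls.

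In SREBF1-targeting over control libraries, all genes past the adjusted threshold numbered 9, and 509 without the filter, 170 with DESeq2, 5 with limma-voom, 0 with chemistry as a term, 1 to 103 with 1 library left out and 4 to 12 with 1 lane left out. Genes of the list at an unadjusted p under 0.05 numbered 5, and 10 without the filter, 1 with chemistry as a term and 2 to 9 with 1 library left out. For the ASO pair over controls, 6 genes passed, and 563 without the filter and 1 to 923 with 1 library left out. Of the list, 1 passed without the filter (CA9) and 0 to 4 with 1 library left out, and 8 and 3 to 15 had an unadjusted p under 0.05. For siSREBF1 over the ASO pair, 22 genes passed, and 380 without the filter and 2 to 877 with 1 library left out, with 4 and 0 to 7 of the list. For siSREBF1 over controls, 60 genes passed, and 458 without the filter and 3 to 578 with 1 library left out, with 3 and 0 to 6 of the list, and 5 to 17 of the list had an unadjusted p under 0.05 with 1 library left out. The causes were not tested.

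By the size rule, siSREBF1 over siNegative called 1 gene of the list, 3 with library totals alone or the unstranded column and 1 to 2 with 1 lane left out. ASO-SREBF1-S4 over ASO-Neg called 1, 2 with library totals alone (median 0.104, against 0.036) and 1 to 2 with 1 lane left out, and siNegative over mock called 0, and 0 to 1 with 1 lane left out. At a log2 ratio of at least 1, the count was 0 in every contrast. SREBF1 had a log2 ratio of -1.82 with chemistry as a term (edgeR adjusted p = 0.112). Of single genes, ARRDC4 ran from -0.036 (without siSREBF1) to 0.175 (without ASO-SREBF1-S1) and MLX from -0.093 (without ASO-SREBF1-S1) to 0.025 (without ASO-SREBF1-S4), and MLX was 0.004 with lane 4 left out.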
